A study of Mus musculus with 11 samples.

Results

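Expression in the skin of mice given only vehicle was measured on 3 arrays, which are the vehicle replicates 1, 3 and 4 of a study of ABBV-075, an inhibitor of BET bromodomain proteins. The arrays were picked by their labels, and they are 3 of the 11 arrays of the series. The other 8 arrays, from skin taken after a dose of 1 mg/kg at 6 h (4 arrays) or 24 h (4 arrays), entered no step and no normalization here. Each vehicle array carried RNA labelled from 200 ng of total RNA of whole skin, and the labels give no strain, sex, age, body site, hair cycle stage, vehicle composition or collection time for these mice. Each array is taken as 1 mouse, as the labels number them, so that mouse, dissection, RNA preparation and array cannot be told apart. With 1 group of 3 arrays no test is possible, and every statement is a description of these arrays. The number of arrays limits its precision.

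Skin is layered. Basal keratinocytes, which contain the keratins Krt5 and Krt14, divide and move outward into the spinous layer, where Krt1 and Krt10 take over, and end in the granular and cornified layers, where loricrin, filaggrin and the late cornified envelope proteins build the barrier. Below lie the collagen-rich dermis, a layer of fat and, in the mouse, a thin sheet of striated muscle (the panniculus carnosus), and hair follicles cross the layers while cycling between growth, regression and rest. Hair keratins and keratin-associated proteins (Krtap genes) are made in the forming shaft of a growing hair, and trichohyalin and the keratins Krt25 to Krt28 and Krt71 to Krt73 in the inner root sheath around it.

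Values are log2(intensity + 16) after quantile normalization of the 3 arrays, and every value below is on that scale unless a fold or an intensity is named. A value of 4.00 is the floor, reached by an intensity at or below 0. The arrays held 45101 probe sets, of which 34958 were annotated to 1 gene, and they gave 18194 genes, each by its brightest probe set. The signal of a probe set depends on its own hybridization as well as on its transcript, so the order of genes is an order of signal and not of transcript number. Signals are also compressed at the bright end. The deposited values had a median intensity of 40.5 on replicate 1, 51.9 on replicate 3 and 49.5 on replicate 4, and 14.9%, 13.4% and 13.35% of probe sets lay below 0.

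The brightest genes of vehicle skin came from protein synthesis, fat, dermal collagen, striated muscle and the epidermis. Among the 30 genes of highest mean signal, 12 were ribosomal protein genes by their symbols, led by Rps29, which ranked first on all 3 arrays and therefore has the same normalized value, 14.15, on each. Next came Car3, the carbonic anhydrase of fat and muscle, at 13.97, 14.00 and 14.05 on replicates 1, 3 and 4, and Fabp4, the fatty acid carrier of adipocytes, at 14.00, 14.05 and 13.97. The dermal genes among the 30 were the collagens Col3a1 (mean 13.99) and Col1a2 (13.76), the collagen-binding matrix protein Sparc (13.66) and the proteoglycan decorin, Dcn (13.61). Striated muscle was represented by skeletal actin, Acta1, at 13.51, 13.68 and 13.82, and by Mylpf, a fast myosin light chain, at 13.40, 13.78 and 13.79. Replicate 1 was the lowest array for both muscle genes. Krt10, the suprabasal keratin, was the only keratin of the 30, at 13.55, 13.64 and 13.75.

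The remaining places went to genes active in most cell types, among them the elongation factor Eef1a1, the thymosins Tmsb4x and Tmsb10, the actin-severing protein Gsn, the respiratory chain subunit Uqcrb, beta-2 microglobulin, B2m, and beta-actin, Actb, which read 13.63, 13.52 and 13.63. After quantile normalization the arrays were close for all 30: the median range between the highest and the lowest array was 0.10, and the largest was 0.40, for the galectin Lgals1. That step gives equal ranks equal values, so small ranges among the brightest genes follow in part from it. The mark for the brightest 5% of genes was 10.98 for the last gene inside and the first outside, and 909 genes (5.0%) stood above it.

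**Figure D1:**
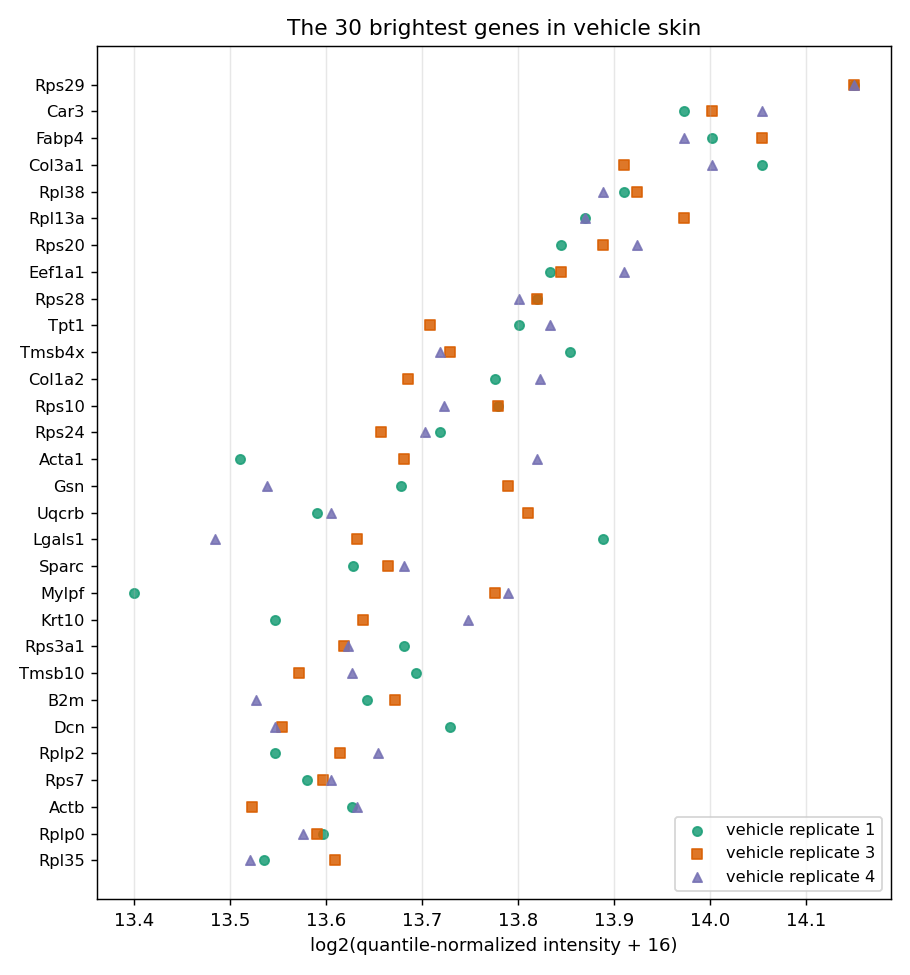
The 30 genes of highest mean signal in vehicle skin, with log2(quantile-normalized intensity + 16) on the x axis and 1 symbol per array. Means run from 13.55 (Rpl35) to 14.15 (Rps29), and Lgals1 has the widest spread, 0.40.

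Marker lists of 25 cell types and layers, and 11 lists of processes, were set against this mark. They hold 621 entries, of which 560 had a probe set annotated to 1 gene. The others were not analysed here. In whole skin, fewer cells of a type and less RNA per cell cannot be told apart, so a bright list says only that its transcripts were abundant in the sample. Of the cell type lists, fibroblast and dermal matrix had the largest share in the brightest 5%, 21 of 26 measured genes. Skeletal muscle followed with 22 of 32, macrophage with 11 of 19, spinous layer with 8 of 15, adipocyte with 8 of 18 and sebaceous gland with 4 of 9, each against 5.0% of all genes. Among the process lists, 28 of 32 cytosolic ribosomal protein genes and 22 of 26 oxidative phosphorylation genes were in that group.

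In the cornified and granular layers 15 of 41 measured genes were among the brightest 5%. Suprabasin, Sbsn, a secreted protein of differentiating epidermis, led with a mean of 13.15, and loricrin, Lor, the main protein of the cornified envelope, read 12.75, 12.85 and 12.87. Filaggrin, Flg, which bundles keratin filaments, read 10.07, 10.38 and 10.43. The median member had a mean of 9.92 and a range of 0.42, and 4 of the 38 members kept for the study of variation differed by 2-fold between arrays, against 11.1% of all genes kept. Of those 4, the late cornified envelope gene Lce1c read 9.64, 11.30 and 11.71, and Abca12, the lipid transporter of lamellar granules, read 4.77, 6.80 and 6.44. Replicate 1 was the low array for both.

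The spinous layer showed Krtdap, a secreted protein of differentiating keratinocytes, at a mean of 13.40 with a range of 0.03, the galectin Lgals7 at 13.35 and dermokine, Dmkn, at 13.13. The desmosomal cadherin Dsg1a read 11.66, 11.92 and 11.80, and Krt1, the partner of Krt10, 11.52, 11.87 and 11.93. Basal keratinocyte genes had a median mean of 10.26, and 3 of 12 were among the brightest 5%: Krt15, a keratin of basal and follicle stem cells, at a mean of 12.35, Krt14 at 12.18 and Krt5 at 12.04. In the sebaceous gland list the brightest gene was Scd1, a fatty acid desaturase also made by adipocytes, at a mean of 13.49. Mgst1, a microsomal glutathione transferase, followed at 13.15, and no member differed by 2-fold between arrays.

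In the subcutaneous fat, adiponectin, Adipoq, the adipocyte hormone, read 13.03, 13.43 and 13.09, and lipoprotein lipase, Lpl, had a mean of 13.13. The thermogenic protein of brown fat, Ucp1, was at 4.00 on all 3 arrays, although Cox8b, a cytochrome oxidase subunit shared with striated muscle, had a mean of 11.97. The dermal members Dpt (dermatopontin) and Lum (lumican) had ranges of 0.13 and 0.21, and 1 of 26 members differed by 2-fold: lysyl oxidase, Lox, which crosslinks collagen, at 12.21, 10.98 and 10.89. Col1a1 read 12.48, 12.94 and 13.04.

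Vessel, nerve, mast cell, Langerhans cell and T cell markers were also measured. No blood endothelial gene of 17 was among the brightest 5%, and the brightest was Ramp2, a receptor partner for adrenomedullin, at a mean of 9.33. Smooth muscle actin, Acta2, had a mean of 10.94, the lymphatic hyaluronan receptor Lyve1 11.07, and the myelin proteins Pmp22 and Mbp 11.84 and 10.50. Mast cell proteases were measurable, with Cpa3 at 9.89, 9.80 and 10.19 and Cma1 at 9.50, 9.68 and 9.47. Langerin, Cd207, the marker of Langerhans cells, read 8.82, 8.54 and 8.22, and the T cell receptor component Cd3g 8.67, 8.93 and 8.67.

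Some defining markers were at or near the floor. The chemokine receptors Ccr7 of migrating dendritic cells and Cxcr2 of neutrophils, the neutrophil granule protein Ltf and the milk protein Lalba were at 4.00 on all 3 arrays, and the B cell receptor component Cd79a did not pass 4.10. Erythroid, cartilage and mammary epithelial lists had the lowest medians, 4.82, 4.91 and 4.97, below the filter of 5.35 used for variation. Other members of the B and plasma cell and neutrophil lists were brighter, as 4 of 6 and 5 of 8 measured genes passed that filter. Ighm, of the B and plasma cell list, read 10.60, 10.29 and 9.74. The melanocyte list had a median of 5.59: tyrosinase, Tyr, the first enzyme of melanin synthesis, read 5.84, 5.38 and 5.43 and Pmel, the melanosome fibril protein, 6.19, 6.49 and 5.80, while Dct, a later enzyme of the same pathway, had a mean of 8.56 and was highest on replicate 3, at 9.19. The X-inactivation transcript Xist read 12.16, 12.68 and 12.76, and the Y-linked genes Kdm5d, Uty and Eif2s3y stayed below the filter.

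**Figure D2:**
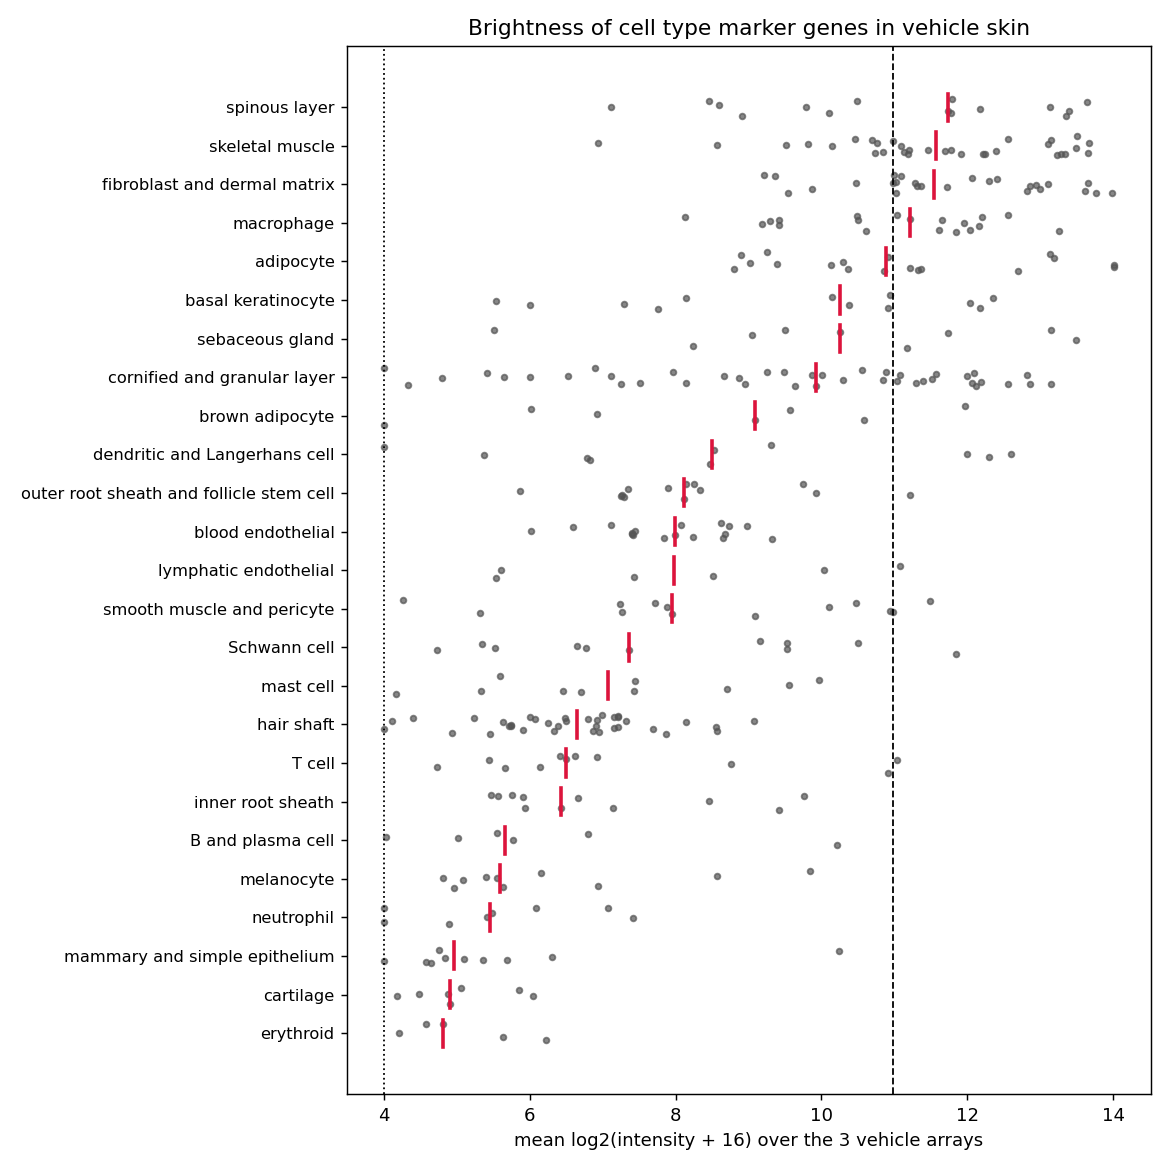
Mean log2(intensity + 16) over the 3 vehicle arrays (x axis) of each measured marker gene, by cell type list, with 1 point per gene and a red bar at the list median. The dotted line is the floor at 4.00 and the dashed line the mark of the brightest 5% at 10.98; spinous layer, skeletal muscle, macrophage and dermal lists have medians right of it, and erythroid, cartilage and mammary lists lie near the floor.

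Variation between the arrays was studied in the 12907 genes whose mean passed the 40th percentile of all probe sets, 5.35. The median range over the 3 arrays was 0.41, with quartiles of 0.24 and 0.68. A range of at least 1, which is a 2-fold difference between the highest and the lowest array, was found in 1438 genes (11.1%), in 183 genes it was at least 2 and in 69 at least 3. The values next to the mark were 1.000 just inside and 0.9997 just outside. Replicates 1 and 4 were the least alike pair, with 8.89% of genes 2-fold apart and a Pearson correlation across genes of 0.929. The pairs of replicates 1 and 3, and 3 and 4, had 5.56% and 2.60% of genes apart and correlations of 0.960 and 0.962. Genes are not independent replicates, and these correlations share a normalization.

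For each varying gene, the array farthest from the middle one was called the array apart. Replicate 1 stood apart on the high side in 528 genes (4.09%) and on the low side in 391 (3.03%). For replicate 4 these numbers were 211 (1.63%) and 186 (1.44%), and for replicate 3 they were 49 (0.380%) and 73 (0.566%). Over all kept genes, whatever their range, replicates 1, 3 and 4 were above both other arrays in 40.4%, 28.8% and 30.7% and below both in 38.5%, 24.5% and 37.0%. The counts of members highest or lowest on an array given below for each list are to be read against these shares. Scaling bears on the split of varying genes. Their array apart was on the high side in 54.8% after quantile normalization, 68.6% after scaling to the array medians and 47.5% as deposited. In the values as deposited, replicate 1 was apart on the high side in 465 genes and on the low side in 517. For replicate 3 these numbers were 116 and 48, and for replicate 4 they were 160 and 255. Median scaling moved the median of all kept genes on replicate 1 up to 0.27 above the mean of the other arrays, against 0.01 with quantile normalization. Of the genes in the lists, 509 were kept and 157 of them varied by 2-fold.

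**Figure D3:**
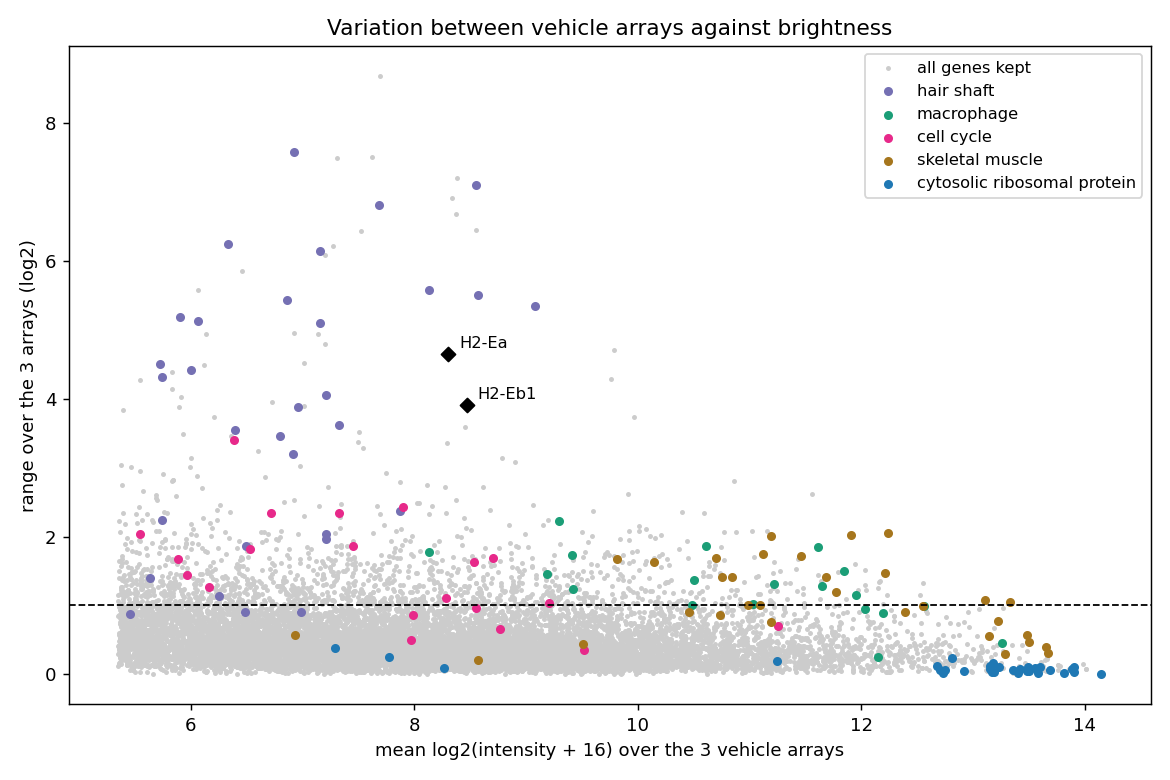
Range over the 3 vehicle arrays (y axis, log2) against mean log2(intensity + 16) (x axis) for the 12907 genes kept, with 5 lists in colour and the dashed line at a 2-fold range. Hair shaft genes reach the largest ranges at low to middle means, ribosomal protein genes lie near 0 at the bright end, and H2-Ea and H2-Eb1 are marked.

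The largest differences lay in the hair. Replicate 4 had the highest signal in 29 of the 30 genes of largest range, and 20 of the 30 were Krtap genes by symbol. Krtap6-3 led, at 5.24 on replicate 1, 4.58 on replicate 3 and 13.27 on replicate 4. Krtap21-1 read 5.20, 4.00 and 11.58, and Krtap22-2 read 5.89, 6.16 and 13.09. These genes encode the high-sulphur and high-glycine-tyrosine proteins that embed the keratin filaments of the shaft. On replicates 1 and 3 the signal of many was near the floor or the filter. Krtap8-1, at 7.27, 7.34 and 12.62, and Krtap6-2, at 6.60, 7.01 and 12.11, stood above the filter on every array. Over all 38 Krtap genes measured, the medians on replicates 1, 3 and 4 were 5.29, 5.24 and 9.60, and replicate 4 was above both others in 32.

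The keratins of the shaft moved with them. Krt33a, an acidic hair keratin, read 4.75, 4.00 and 10.25, and Krt34, of the same class, 5.52, 5.42 and 10.53. Hoxc13, a homeodomain factor that controls hair keratin genes, read 5.78, 6.06 and 7.65, so its signal was also higher on replicate 4, by less. In the whole hair shaft list replicate 4 was above both other arrays in 32 of 36 measured genes, and their medians on replicates 1, 3 and 4 were 5.48, 5.37 and 8.97. Of the 31 members kept, 28 had a range of at least 1, all 28 with replicate 4 apart on the high side, against 1.63% of all kept genes. For 11 of the 31 the filter was passed on replicate 4 only. Of the 17 that passed it on every array, 15 had a range of at least 1 with replicate 4 apart and high. The median of replicate 4 minus the mean of the other arrays was 3.85 over the 31, and replicates 1 and 3 differed by a median of -0.05.

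In 4 members replicate 4 was not the highest array: Krtap12-1 read 5.66, 5.80 and 4.92, Krtap5-1 read 6.79, 5.89 and 6.79, and Krtap5-4 and Krtap13 stayed below the filter on every array. Krtap genes have near-identical copies, and a probe set of one can bind transcripts of another, so the members are not independent measurements. A second probe set of Krtap16-3, at 5.52, 4.89 and 11.04, followed the first, at 6.27, 6.29 and 11.85.

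The promoters of the hair genes are shown because these genes moved together on 1 array. Promoter sequences are those of RefSeq on GRCm38.p6 and cover the 250 bases before the annotated start. In that window 10 motifs were searched on both strands, and the names given to motifs are background. Of the 30 genes of largest range 27 are in the promoter table, and 23 of them hold TATAAA, the core of the TATA box, which 14.3% of all 27025 genes in the table hold. In the hair shaft list 19 of 23 kept genes with a promoter hold it, in the inner root sheath list 7 of 11. The sequence CTTTGAA, a form of the site bound by LEF1, a Wnt effector in hair matrix cells, is in 8 of the same 23 and in 5.19% of all genes, and the form CTTTGTT in 3 of 23 and 5.77%. The homeodomain letters CTAATTA are in 3 of the 23 and in 2.17% of all genes, and a form of the HOXC13 site, TTTATTG, in 0 of 23 and 4.89%. An E2F site and a MEF2 site, held by 2.13% and 0.592% of all genes, were also searched, and neither is in the 23. The E2F site is in 0 of 18 kept cell cycle genes with a promoter, and the MEF2 site in 1 of 20 skeletal muscle genes. Below are the last 120 bases before the start of the 5 genes of largest range, 5′ to 3′ on the strand named, with TATAAA on either strand in capitals. A match is a description of the letters and not a site shown to be used.
Krtap6-3, chr16:89083904-89084023, plus strand: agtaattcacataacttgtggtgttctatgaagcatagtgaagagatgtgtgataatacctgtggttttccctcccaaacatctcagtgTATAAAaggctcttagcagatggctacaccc
Krtap21-1, chr16:89403775-89403894, minus strand: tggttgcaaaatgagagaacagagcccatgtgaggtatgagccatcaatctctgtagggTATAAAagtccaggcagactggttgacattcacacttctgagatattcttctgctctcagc
Gm9789, chr16:89157796-89157915, plus strand: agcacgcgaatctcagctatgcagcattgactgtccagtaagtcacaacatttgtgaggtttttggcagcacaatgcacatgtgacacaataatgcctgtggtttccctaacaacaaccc
Krtap1-5, chr11:99581017-99581136, minus strand: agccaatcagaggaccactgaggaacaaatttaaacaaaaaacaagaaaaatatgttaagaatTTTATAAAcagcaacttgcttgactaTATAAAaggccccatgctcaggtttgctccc
Krtap22-2, chr16:89010760-89010879, minus strand: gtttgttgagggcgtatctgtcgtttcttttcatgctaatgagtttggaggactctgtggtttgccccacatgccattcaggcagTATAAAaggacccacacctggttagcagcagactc
Krtap6-3, Krtap21-1, Krtap1-5 and Krtap22-2 hold TATAAA in these 120 bases, and Gm9789 does not.

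Most inner root sheath genes were also highest on replicate 4. Trichohyalin, Tchh, which hardens the sheath, read 8.15, 8.71 and 12.43, and the sheath keratins Krt25 and Krt27 read 7.25, 7.27 and 10.84, and 5.48, 5.53 and 10.42. Replicate 4 was above both others in 10 of 11 measured members, and 9 of 11 had a range of at least 1, all with replicate 4 apart and high. For 3 of the 11 the filter was passed on replicate 4 only, and of the 6 that passed it on every array 5 had a range of at least 1 with replicate 4 apart and high. Krt28 was the exception, at 5.18, 5.89 and 5.35. The median of replicate 4 minus the other arrays was 2.73.

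In the outer root sheath and stem cell list the differences were smaller and graded. Krt17, a keratin of the outer sheath, read 8.92, 9.85 and 10.99, and Lgr5, a receptor of cycling follicle stem cells, 7.40, 7.96 and 9.06. A second, dimmer probe set of Krt17 had the same order with a range of only 0.44, at 5.87, 6.12 and 6.31. Replicate 4 was above both others in 10 of 13 members and replicate 1 below both in 11 of 13, with a median of 1.28 for replicate 4 minus the others. Krt6b went its own way at 5.16, 7.53 and 4.93. Without replicate 4, only 3 of the 30 genes of largest range still differed by 2-fold, and without replicate 1 or replicate 3 this was true of 30 and 29. These 30 were selected by their range over the same arrays, and 29 were highest on replicate 4. The counts therefore largely follow from the selection.

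**Figure D4:**
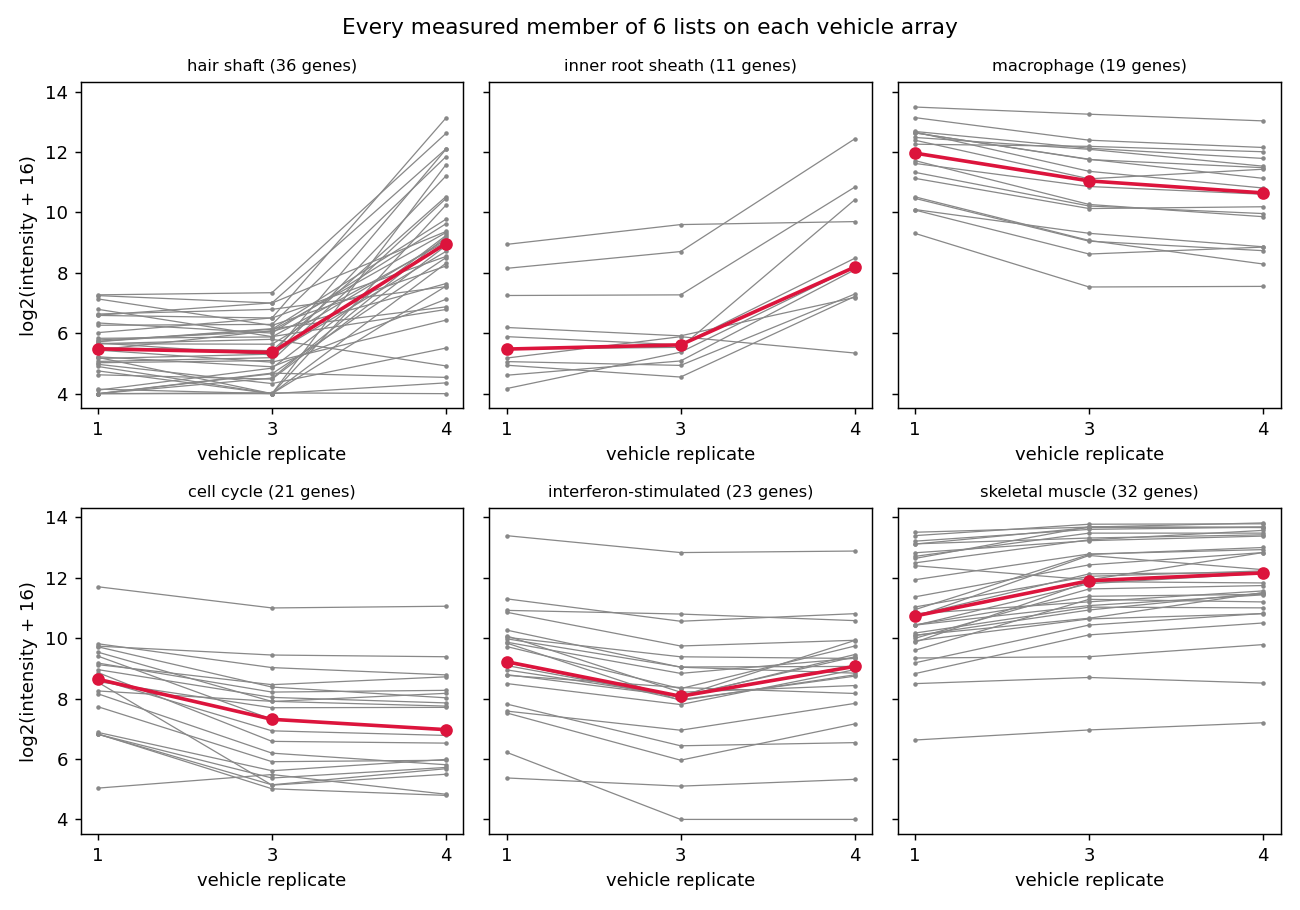
log2(intensity + 16) (y axis) on vehicle replicates 1, 3 and 4 (x axis) for each measured member of 6 lists, with grey lines joining the points of a gene and a red line the list median; replicates have no order, and the lines only show which points belong together. Hair shaft and inner root sheath medians are high on replicate 4, macrophage and cell cycle medians on replicate 1, and the interferon-stimulated median is low on replicate 3.

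Replicate 1 differed from the other arrays in several cell types at once. By the brightest probe set of each, all 19 macrophage genes were highest on it. Of the 19, 13 had a range of at least 1, against 11.1% of all kept genes. A second, dimmer probe set of Fcgr1 was lowest on replicate 1, at 4.64, 6.26 and 6.06, against 10.08, 8.62 and 8.85 for the first. Second probe sets of C1qb, Csf1r, Laptm5 and Ms4a7 were highest on replicate 1. Aif1, an actin-binding protein of macrophages, read 10.52, 9.07 and 8.29, and C1qa, a chain of complement C1q, 12.66, 11.36 and 10.81. The scavenger and lysosomal protein Cd68 read 10.47, 9.05 and 8.74. The brightest member, lysozyme, Lyz2, at 13.49, 13.26 and 13.03, and the growth factor receptor Csf1r, at 12.26, 12.19 and 12.01, differed far less. The median of replicate 1 minus the mean of the others was 1.12. Blood endothelial genes were highest on replicate 1 in 16 of 17 members, with 4 past 2-fold, such as the fenestral diaphragm protein Plvap at 9.70, 8.12 and 8.23. Their median was 0.50, and 0.78 with median scaling. Of the T cell genes 6 of 11 were highest on replicate 1 and 3 lowest, beside 40.4% and 38.5% of all kept genes, and no kept member reached 2-fold.

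Cell cycle genes were the other group high on replicate 1. It was above both other arrays in 20 of 21 measured genes, Tyms being the exception at 5.04, 5.49 and 4.83, and 14 of the 20 kept had a range of at least 1, against 11.1% of all kept genes. Birc5 (survivin), a mitotic regulator, read 8.54, 5.14 and 5.50, and Cdk1, the mitotic kinase, 9.41, 7.31 and 6.97. The proliferation marker Mki67 read 9.72, 8.38 and 8.03, whereas genes of the replication machinery, such as Pcna at 11.70, 11.00 and 11.06 and Mcm7 at 9.74, 9.44 and 9.39, differed less.

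The CCAAT box is in the window of 17 of 18 kept cell cycle genes with a promoter and of 37.5% of all genes, while none of the 18 holds TATAAA. The cell cycle homology region, searched as TTTGAA and also part of CTTTGAA, is in 7 of the 18 and in 18.3% of all genes. It is not particular to this list, as 10 of 23 kept hair shaft genes with a promoter also hold it. Shown for contrast with the hair promoters are the 120 bases before the start of the 2 members of largest range with a CCAAT box in that stretch, with CCAAT on either strand in capitals.
Cdk1, chr10:69352913-69353032, minus strand: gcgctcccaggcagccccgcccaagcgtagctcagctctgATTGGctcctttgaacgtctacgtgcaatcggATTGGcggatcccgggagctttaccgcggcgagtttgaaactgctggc
Ccnb2, chr9:70421555-70421674, minus strand: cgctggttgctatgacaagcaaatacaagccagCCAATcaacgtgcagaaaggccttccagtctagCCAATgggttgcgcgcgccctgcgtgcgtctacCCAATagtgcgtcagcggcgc
Cdk1 holds 2 and Ccnb2 3 such matches in these bases.

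Skeletal muscle genes were lowest on replicate 1 in 31 of 32 members, and 17 of 32 had a range of at least 1, of which 16 had replicate 1 apart and low against 3.03% of all kept genes. Titin, Ttn, the giant spring protein of the sarcomere, read 10.95, 12.77 and 13.01, and myoglobin, Mb, 10.71, 12.74 and 12.27. Myh2, the myosin of oxidative fast fibres, read 9.87, 11.87 and 11.83. Creatine kinase, Ckm, read 12.50, 13.26 and 13.57. The median of replicate 1 minus the others was -0.92, and -0.50 with median scaling, which lifts all genes of that array. A second probe set of Ttn, at 9.89, 11.89 and 12.22, showed the same order.

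Basal keratinocyte genes were lowest on replicate 1 in 11 of 12 members, with a median of -0.73 (-0.39 with median scaling). Krt5 read 11.31, 12.20 and 12.60, and Col17a1, a hemidesmosome collagen, 10.32, 11.06 and 11.37. Of the layers above, 13 of 15 spinous and 28 of 41 cornified genes were also lowest there, by medians of -0.29 and -0.24 that turn to 0.10 and 0.06 with median scaling. The same holds for oxidative phosphorylation, lowest on replicate 1 in 24 of 26 genes with a median of -0.28 that becomes 0.16, and no member past 2-fold. Median scaling lifts all genes of replicate 1. Relative to the median of all kept genes under that scaling, the spinous, cornified and oxidative phosphorylation medians were -0.17, -0.21 and -0.11. Of the circadian clock list 12 of 17 measured genes were lowest on replicate 1 and 4 were highest on it, beside 38.5% and 40.4% of all kept genes. Among the 12 were the clock output factors Dbp, at 9.69, 10.85 and 10.90, and Tef, at 9.13, 10.16 and 10.31. The labels give no hour of collection.

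Control probe sets differed between the arrays as well. The 5′ control probe set for 18S ribosomal RNA read 4432 in deposited intensity on replicate 1, against 2011 and 1686 on replicates 3 and 4. The middle set read 3669, 1620 and 2740 on replicates 1, 3 and 4, and the 3′ set 514, 470 and 469. The ratio of 5′ to 3′ signal for beta-actin was 0.484 on replicate 1 against 0.593 and 0.565. For Gapdh the ratio was 0.888, 0.911 and 0.698, lowest on replicate 4. Hybridization spikes were alike, at 3121, 3172 and 3138. The part of these measures in the differences of replicates 1 and 4 was not tested.

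**Figure D5:**
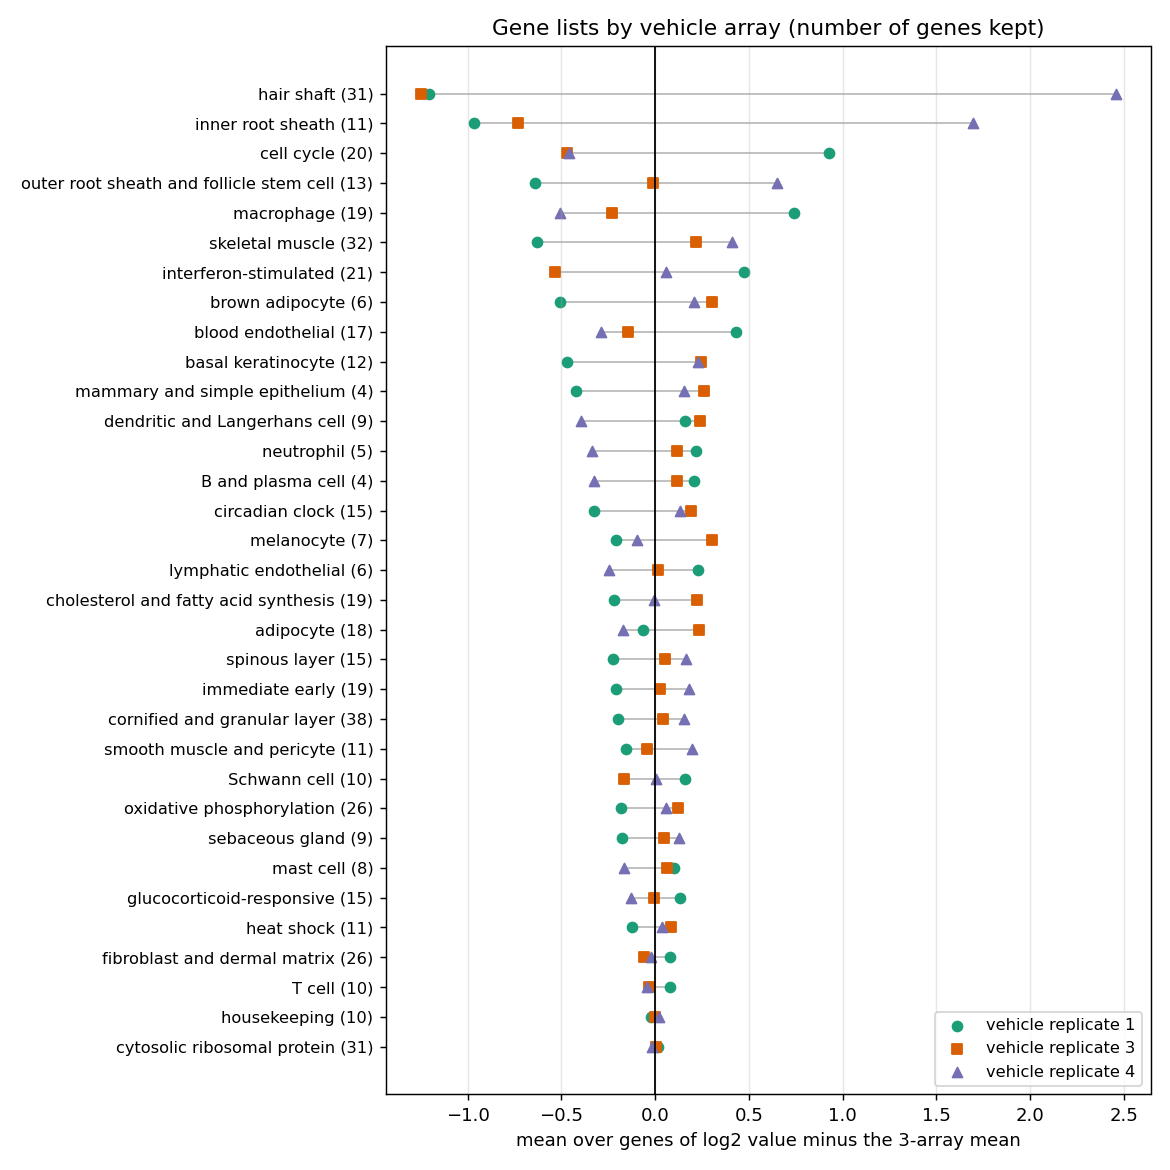
Mean deviation of each list from its 3-array mean (x axis, log2) on each vehicle array, for the 33 lists with at least 4 genes kept, in order of spread, with the number of genes kept in brackets. The spread reaches 3.71 for hair shaft and 2.67 for inner root sheath and is 0.03 for cytosolic ribosomal proteins, and 7 lists reach 1. Values are after quantile normalization, and the ribosomal spread is 0.20 as deposited.

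Replicate 3 stood apart least often, and class II, interferon-stimulated and lipid genes were among those that differed on it. H2-Ea, the alpha chain of the class II molecule I-E, read 7.30, 11.13 and 6.48, and its second probe set 5.13, 10.18 and 4.00. H2-Eb1, the beta chain of the same molecule, read 7.98, 10.68 and 6.76. Both were thus high on replicate 3 alone, 25.2-fold and 15.1-fold over the lowest array on this scale. The other class II genes did not share this: H2-Aa and H2-Ab1, the chains of I-A, read 12.40, 12.31 and 12.19, and 12.24, 11.96 and 11.80, and the invariant chain Cd74 12.69, 12.69 and 12.41. H2-Ea is known as a gene that mice of the H2-b haplotype, C57BL/6 among them, do not express, and RefSeq lists it as a transcribed pseudogene on the C57BL/6 reference. The labels give no strain or haplotype.

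Interferon-stimulated genes were lowest on replicate 3 in 18 of 23 measured members, beside 24.5% of all kept genes, and 14 of the 21 kept had a range of at least 1, against 11.1%. In 7 of the 14 replicate 3 was apart and low, in 6 replicate 1 was apart and high, and in 1 replicate 4 was. The antiviral genes Oasl2, at 9.84, 7.94 and 8.79, and Irf7, at 9.22, 7.96 and 8.74, were highest on replicate 1. Rsad2 (viperin), at 8.79, 8.08 and 9.92, and Ifit1, at 9.10, 8.04 and 9.46, were highest on replicate 4. The list was therefore not ordered alike on the other arrays, although 16 of 23 were highest on replicate 1. The median of replicate 3 minus the others was -0.77, and -0.49 when only replicates 3 and 4 were compared. The interferon-stimulated response element, searched as a pair of GAAA in the same direction with 2 bases between them, is in 6 of 14 kept members with a promoter and in 3.46% of all genes. The 120 bases before the start of the 2 members of largest range that hold it there are shown with matches on either strand in capitals.
Rsad2, chr12:26456453-26456572, minus strand: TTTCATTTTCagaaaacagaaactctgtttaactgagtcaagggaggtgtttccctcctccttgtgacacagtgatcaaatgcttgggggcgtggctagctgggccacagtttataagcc
Ifit1, chr19:34640769-34640888, plus strand: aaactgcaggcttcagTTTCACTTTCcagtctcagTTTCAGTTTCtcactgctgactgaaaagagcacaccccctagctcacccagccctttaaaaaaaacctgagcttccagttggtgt
Both matches of Ifit1 and that of Rsad2 read on the strand opposite to the gene.

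Adipocyte genes were highest on replicate 3 in 11 of 18 members, beside 28.8% of all kept genes, and 6 of 18 had a range of at least 1, against 11.1%. In 3 of the 6 replicate 3 was apart and high. Thrsp, a regulator of fat synthesis, read 10.81, 12.13 and 11.01, with a second probe set at 9.55, 10.94 and 9.45, and the adipocyte hormones resistin, Retn, and leptin, Lep, read 10.97, 11.96 and 10.71, and 9.34, 10.02 and 8.81. The lipid droplet protein Cidec, at 10.85, 10.45 and 9.78, and the lipases Pnpla2, at 10.77, 10.21 and 9.90, and Lipe, at 9.34, 9.05 and 8.67, were highest on replicate 1. Of the cholesterol and fatty acid synthesis list 13 of 19 were highest on replicate 3, and the 2 past 2-fold were both enzymes of fatty acid synthesis: Acaca at 8.57, 9.51 and 8.32, and Fasn at 10.29, 11.42 and 10.74. The fat proteins Adipoq, Fabp4 and Lpl varied by 0.40 or less.

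Several single genes outside the lists were noticed after their values were seen. On replicate 1 the progesterone receptor Pgr read 10.42 against 8.65 and 7.29, and Greb1, an oestrogen-responsive gene, 8.93 against 7.59 and 6.49. Has2, a hyaluronan synthase, read 10.13 against 7.98 and 6.78. Second probe sets of all 3 genes had the same order of arrays, with ranges of 2.19, 2.38 and 3.83. The oxytocin receptor Oxtr, at 9.34, 7.87 and 6.85, lay in the same order. On replicate 4 Akr1e1, an aldo-keto reductase, read 4.17 against 8.12 and 7.89, and Galc, the lysosomal galactosylceramidase, 4.57, with 8.47 on replicate 1 and a range of 3.90 over the arrays. The zinc finger gene Zfp979 read 4.00, 5.85 and 8.49, different on every array.

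Where a gene had another probe set, the 2 could be compared. Of the 1438 varying genes 412 had a second probe set above the filter, and it had the same highest array in 305 (74.0%) and a range of at least 1 in 214 (51.9%). Among the 5449 genes with a range below 1 and a second probe set, these shares were 51.4% and 8.99%. A second probe set thus gave the same highest array more often where the first one varied, though not in every gene. At the other end, the 31 kept cytosolic ribosomal protein genes had a median range of 0.07 and the 10 housekeeping genes one of 0.23. None of either list varied by 2-fold. Quantile normalization gives equal ranks equal values, so small ranges of such bright genes follow in part from that step. The spread of the ribosomal list was 0.03 with it, 0.20 as deposited and 0.49 with median scaling. For the housekeeping list these values were 0.05, 0.18 and 0.43.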

How the data were processed

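Whole-skin RNA of vehicle-treated mice was hybridized to 3' expression arrays, per the labels' protocols. Each of the 3 arrays is taken as 1 mouse. The authors deposited linear probe set intensities, some below 0; the sources used here do not give the software, background method or scaling. Only the 3 vehicle arrays entered any step. Their intensities were quantile-normalized together, set to at least 0 and turned to log2 with a pseudocount of 16, so the deposited intensity values became log2 values. Probe sets with 1 annotated gene were used (34958; 932 had several and 9211 none), with 34754 symbols updated through Entrez IDs to RefSeq GRCm38.p6, and each gene took its brightest probe set. A gene was kept when its mean passed the 40th percentile of all probe sets. Because of the pseudocount, folds understate the change of dim genes. Genes were named as the 30 brightest, the 30 of largest range, the 3 brightest and 2 most variable of each list, and a fixed set of skin markers; genes outside this rule are said to be so or come from the lists. The arrays were picked by label, but the choice of the vehicle arrays as members, and of the lists, was made with earlier results of these data known. Alternatives changed the normalization, the probe set choice, the pseudocount, the filter, the range and the arrays used. No test was run, as there is 1 group. Python 3.11.15, numpy 2.4.6, pandas 2.3.3, R 4.3.3 and limma 3.58.1 (cyclic loess) were used. The range step was tested on simulated data, and the list step was not.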

Additional observations from a re-analysis of the deposited data

How the results depend on the processing

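Of the 30 brightest genes, 15 stayed among the brightest 30 when a gene was the mean of its probe sets, and 26 to 29 when 1 array was left out. The 1438 genes with a 2-fold range became 761 with a pseudocount of 64, 2215 without the filter, 928 with a filter at the 60th percentile and 183 at a range of at least 2. Leaving out an array gave 304 to 1146: 304 without replicate 1 and 761 without replicate 4, where a range over 2 arrays is smaller by construction. The number of lists with a spread of at least 1 was 7 and stayed 7 with cyclic loess, without x_at and s_at probe sets, with a pseudocount of 1, without the filter and with the filter at the 60th percentile. It was 5 as deposited and with the mean of probe sets, 6 with median scaling or a pseudocount of 64, and 2 to 6 when an array was left out, with 2 without replicate 1 or replicate 4. Under median scaling the replicate 1 contrasts of skeletal muscle, basal keratinocyte and blood endothelial genes moved to -0.50, -0.39 and 0.78, and without replicate 1 the interferon contrast of replicate 3 was -0.49. None of the 9 list contrasts chosen for these alternatives changed sign where its array was present. Among the other lists, signs did change. With median scaling the replicate 1 contrasts of spinous, cornified and oxidative phosphorylation genes became 0.10, 0.06 and 0.16, though each stayed below the median of all kept genes. Without replicate 4, 3 of the 30 genes of largest range still had a range of at least 1: Krtap21-1 and Krtap19-1, both at 1.17, and H2-Ea at 3.89. Without replicate 3 the range of H2-Ea was 0.83. No paired analysis was possible because there is 1 group and no test. The 3 arrays limit every value.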
